A study of Mus musculus with 10 samples.

Results

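The 67 replication-dependent histone genes of the mouse clusters were taken by name from GENCODE M21: every protein-coding autosomal gene whose symbol starts with Hist1h, Hist2h, Hist3h or Hist4h, out of 20807 protein-coding autosomal genes. They comprised 6 linker histone H1 genes, 18 H2A, 18 H2B, 12 H3 and 13 H4 genes. Of these, 54 lay in HIST1 on chromosome 13, 10 in HIST2 on chromosome 3, 2 in HIST3 on chromosome 11 and 1, Hist4h4, on chromosome 6. Each was described by the ATAC-seq and H3K4me3 peaks that overlapped a window of 1 kb on either side of a transcription start site (TSS).

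The cells were primary neural stem/progenitor cells (NSPCs) from the brains of C57BL/6 mice at postnatal day 5, grown on Neurobasal A with B27. Activated NSPCs grew in FGF2 and EGF, each at 20 ng/ml. Quiescent NSPCs were held in FGF2 at 20 ng/ml with BMP4 at 25 ng/ml and no EGF, for 4 days by the labels, although the methods of the study give a shorter time for quiescent ATAC libraries. Reactivated NSPCs went through 4 days of BMP4 and were then returned to FGF2 and EGF for 9 to 12 days. ATAC-seq, which uses the Tn5 transposase to cut accessible DNA, was done on 2 libraries per state. H3K4me3 ChIP-seq, for a mark of active and poised promoters, was done on 1 library per state in quiescent and activated cells, each against its input. The study calls the replicates biologically independent and collected them over a window of days. The labels do not say which cultures or animals they came from, and p-values measure the spread between these libraries. This is a culture model: BMP4 stands in for the signals of the niche.

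Replication-dependent histones package newly made DNA, and their genes are transcribed mainly during S phase. Most have no introns, and their mRNAs end in a stem-loop bound by SLBP in place of a poly(A) tail. NPAT, a target of cyclin E and CDK2, is concentrated at the clusters in the histone locus body. H2A, H2B, H3 and H4 form the core of the nucleosome, and H1 binds the linker DNA. Many H2A and H2B genes are transcribed away from each other from a shared promoter region. CCAAT boxes are bound by NF-Y, the octamer by POU2F1, and many H4 promoters instead use a site for HINFP.

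Promoters were searched for 3 sets of letters on both strands in the 300 bases around each RefSeq start, 250 before and 50 after (GRCm38.p6). A RefSeq promoter was matched for 62 members. CCAAT was present in 53 of 62 (85.5%), against 37.3% of 31396 autosomal promoters of the same length. All 6 H1, 18 H2A, 16 H2B and 10 H3 promoters held it, but 3 of 12 H4 promoters did. TATAAA was present in 35 of 62 (56.5%), against 13.6% of all promoters, and in 4 of 6 H1, 11 of 18 H2A, 8 of 16 H2B, 4 of 10 H3 and 8 of 12 H4 promoters. The octamer ATTTGCAT was present in 7 of 18 H2A and 6 of 16 H2B promoters and in none of the H1, H3 and H4 promoters, against 1.75% of all promoters. The windows of divergent partners overlap, so a site between them counts for both, as with the octamer at Hist1h2ah and Hist1h2bk, Hist1h2ae and Hist1h2bg, and Hist1h2ba and Hist1h2aa. None of the 3 motifs contains another, and shares were not tested between types. A match is a description of letters and not a binding site.

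The promoters printed here are shown because the results below turn on them or because they mark the contrast between types. Each is the stretch just before the RefSeq start on the strand of the gene, with the 3 motifs in capitals on either strand. For the divergent pairs it is the stretch between both starts, cut to 250 bases at Hist1h2aa, and it stops 4 bases short of the start at Hist1h2bg. Hist1h1b was the member with ATAC peaks in activated and not in quiescent libraries (chr13:21780626-21780775, minus strand). Hist1h2bn shares its promoter with Hist1h2ak, the pair that was higher in quiescent NSPCs, with 3 CCAAT boxes (chr13:21753913-21754075, plus strand).
Hist1h1b: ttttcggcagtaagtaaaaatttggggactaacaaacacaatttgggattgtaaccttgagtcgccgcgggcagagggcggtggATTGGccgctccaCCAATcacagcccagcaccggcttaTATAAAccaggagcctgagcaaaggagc
Hist1h2bn: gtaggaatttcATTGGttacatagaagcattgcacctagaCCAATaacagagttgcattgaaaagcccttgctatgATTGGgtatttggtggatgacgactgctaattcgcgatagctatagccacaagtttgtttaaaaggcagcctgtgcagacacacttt
The next 3 also come from divergent H2A-H2B pairs: Hist1h2bk, with Hist1h2ah the strongest pair (chr13:22035644-22035820), Hist1h2bj with Hist1h2ag (chr13:22042950-22043197), and Hist1h2bg with Hist1h2ae, which holds all 3 motifs (chr13:23571221-23571395), all on the plus strand.
Hist1h2bk: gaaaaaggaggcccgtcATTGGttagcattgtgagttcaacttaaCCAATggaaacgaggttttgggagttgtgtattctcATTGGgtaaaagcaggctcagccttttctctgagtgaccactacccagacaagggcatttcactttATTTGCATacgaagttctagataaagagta
Hist1h2bj: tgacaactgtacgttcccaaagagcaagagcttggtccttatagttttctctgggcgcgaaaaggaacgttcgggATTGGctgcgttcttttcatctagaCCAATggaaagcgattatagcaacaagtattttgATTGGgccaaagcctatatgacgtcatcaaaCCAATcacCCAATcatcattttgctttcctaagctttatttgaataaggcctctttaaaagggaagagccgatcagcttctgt
Hist1h2bg: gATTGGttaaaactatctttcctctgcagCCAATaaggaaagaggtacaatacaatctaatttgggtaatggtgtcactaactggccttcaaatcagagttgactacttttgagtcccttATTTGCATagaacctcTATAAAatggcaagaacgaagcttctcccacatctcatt
The H4 genes Hist1h4d (chr13:23581418-23581567, plus strand) and Hist4h4 (chr6:136804432-136804581, minus strand) are set beside the germ cell genes Hist1h1t (chr13:23695661-23695810, plus strand) and Hist1h2aa (chr13:23934187-23934436, plus strand), which had no peak or a peak in reactivated libraries alone.
Hist1h4d: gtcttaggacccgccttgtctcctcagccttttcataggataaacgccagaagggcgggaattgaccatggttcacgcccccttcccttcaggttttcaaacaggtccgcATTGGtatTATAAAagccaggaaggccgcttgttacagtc
Hist4h4: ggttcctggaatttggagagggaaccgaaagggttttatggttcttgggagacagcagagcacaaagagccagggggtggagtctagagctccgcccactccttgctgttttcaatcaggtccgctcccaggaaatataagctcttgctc
Hist1h1t: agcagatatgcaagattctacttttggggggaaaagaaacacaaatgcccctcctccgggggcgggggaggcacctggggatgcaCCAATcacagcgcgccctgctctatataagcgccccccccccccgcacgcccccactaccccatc
Hist1h2aa: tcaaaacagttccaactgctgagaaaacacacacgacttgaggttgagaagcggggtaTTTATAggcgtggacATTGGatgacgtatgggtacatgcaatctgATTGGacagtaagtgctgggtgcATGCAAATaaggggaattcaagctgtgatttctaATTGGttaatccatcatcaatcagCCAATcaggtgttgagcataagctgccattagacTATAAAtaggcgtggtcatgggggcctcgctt

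Across the series, each ATAC list held between 47323 and 60881 peaks in the quiescent and activated libraries and 106586 and 107137 in the reactivated libraries, and the H3K4me3 lists held 17186 and 15980. The median fold enrichment over the 11331 promoters with a peak in all 6 ATAC libraries was 7.68 to 9.39 in the quiescent and activated libraries and 11.9 and 12.6 in the reactivated libraries, whose peak names carry a mark of downsampling that the other lists lack. The reactivated state and this difference in processing cannot be told apart. As a check of the labelled cell type, all 5 neural stem and progenitor markers looked up (Sox2, Nes, Vim, Fabp7 and Pax6) had a promoter peak in all 6 libraries, as did 2 of 3 neuronal markers. Of 3 microglial markers, Csf1r and Ptprc had no peak in any library and Cx3cr1 had 1, at 2.50 in quiescent library 1. Of 3 endothelial markers, Cdh5 and Tie1 had none and Pecam1 had peaks at 3.18 in activated library 1 and 6.80 in reactivated library 1. Of these 5 neural stem markers, 2 were lower in reactivated than in quiescent NSPCs after the centring described below (18.0% of all promoters): Sox2 at −0.99 ± 0.18 (log2, SE; limma, adjusted p = 0.000843) and Vim at −0.51 ± 0.17. Vim was also lower against activated NSPCs (8.81%), at −0.55 ± 0.17 (limma, adjusted p = 0.0306). Before centring, Vim was at 7.34 and 8.37 in quiescent and 8.28 and 9.19 in reactivated libraries, which is higher on average. Sox2 was at 10.3 and 11.1 in quiescent and 6.84 and 10.7 in reactivated libraries, which is lower on average.

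The first question was whether the histone promoters were accessible in each state. Histone promoters were open in nearly every library, in quiescent as well as in cycling cultures. Quiescent library 1 had a peak at 61 of 67 members (58.7% of all 20807 genes) and library 2 at 62 (60.0%). Each activated library had one at 63 (60.3% and 58.6%) and each reactivated library at 65 (67.9% and 67.7%). Requiring both libraries of the state left 61 for quiescent NSPCs (background 56.9%), 63 for activated (57.3%) and 65 for reactivated (66.4%). A peak was lacking in all 6 libraries at 2 members, Hist1h1d and Hist1h1t, against 30.0% of all genes. A peak in all 6 libraries was present at 61 members (91.0%), against 54.5% of all genes. Those 61 rested on 51 distinct sets of peaks, because neighbours share them: 13 pairs of members are transcribed away from each other from starts 164 to 608 bp apart. Members are therefore not independent of each other. Between quiescent and activated NSPCs, 62 members were shared, meaning that each state had a peak there in 1 or both libraries (background 59.1%). None had a peak in both quiescent libraries and neither activated library (0.779%), and 1, Hist1h1b, showed the reverse (0.947%).

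**Figure D1:**
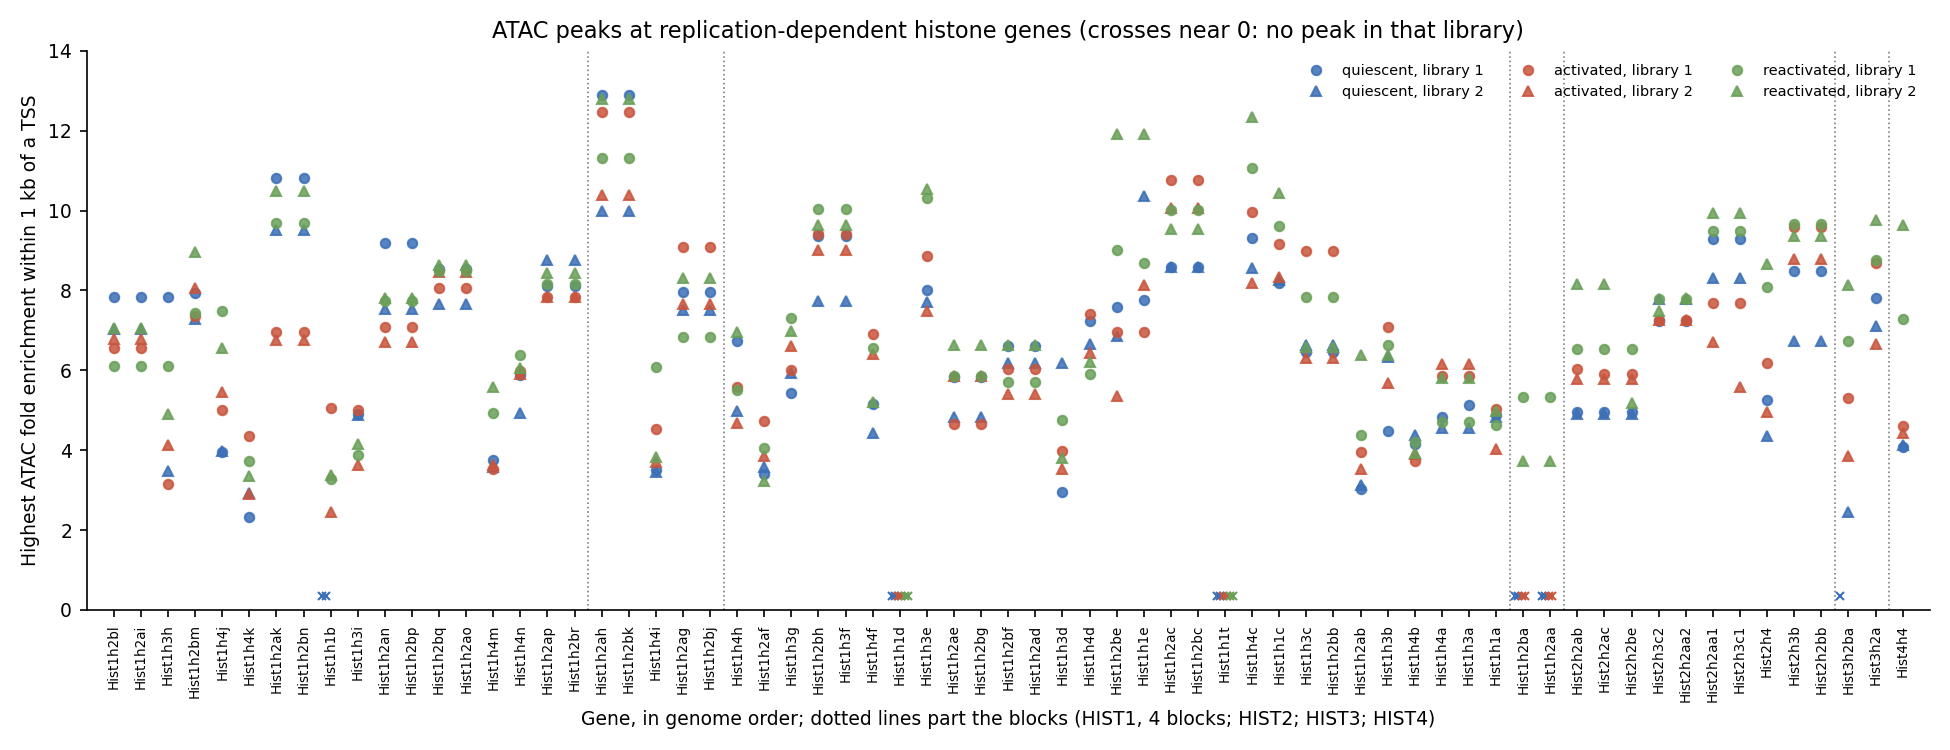
Highest ATAC fold enrichment within 1 kb of a TSS (y axis, linear) for each of the 67 histone genes (x axis, genome order), with circles and triangles for the 2 libraries of each state. Neighbouring genes carry equal values where they share a peak, and crosses mark the 6 genes that lacked a peak in at least 1 library.

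The fold enrichment of a peak is the ratio of its pileup to the local background, and each gene was given the highest value in its window. Among members with a peak, the median was 7.24 and 6.69 in the quiescent libraries, 6.95 and 6.40 in the activated libraries and 7.29 and 7.81 in the reactivated libraries. Over all genes with a peak the medians were 7.49, 7.23, 8.89, 7.65, 10.8 and 11.4 in the same order. Histone promoters thus lay close to the median promoter in quiescent libraries and below it in the activated and reactivated ones. The summit of the strongest peak lay upstream of the 5' end of the gene at 72.3% to 80.6% of members by library, against 55.1% to 61.8% of all genes. Its median position was −72 to −93 bp from that end at the members and −12 to −24 bp at all genes.

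Within a library the levels differed widely among the members, from 2.32 to 12.9 in quiescent library 1. The divergent pair Hist1h2ah and Hist1h2bk, an H2A and an H2B gene, ranked first, at a fold enrichment of 12.9 and 9.99 in quiescent libraries, 12.5 and 10.4 in activated ones and 11.3 and 12.8 in reactivated libraries. The 3 states overlapped there. Next came the H4 gene Hist1h4c, at 9.31 and 8.56, 9.95 and 8.19, then 11.1 and 12.3, and the pair Hist1h2ac and Hist1h2bc, at 8.59 and 8.59, 10.8 and 10.1, then 10.02 and 9.54. Both reactivated values were the highest at Hist1h4c, whereas both activated values were the highest at Hist1h2ac and Hist1h2bc. These are the 5 members with the highest mean percentile among the peaks of each library.

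At the other end stood the H4 gene Hist1h4k, at 2.32 and 2.92 in quiescent libraries, 4.36 and 2.91 in activated ones and 3.73 and 3.35 in reactivated libraries. Hist1h2af (H2A) was at 3.41 and 3.57, 4.74 and 3.84, then 4.04 and 3.22. Hist1h2ab (H2A) was at 3.03 and 3.13, 3.95 and 3.53, then 4.39 and 6.37. Both quiescent values were the lowest at Hist1h2ab. At Hist1h4k both reactivated values were above both quiescent ones, and at Hist1h2af both activated values were, while the other pairs of states overlapped at these 2 genes. Hist1h3d (H3) was at 2.96 and 6.19, 3.97 and 3.52, then 4.75 and 3.81. Its 2 quiescent values came from different peaks, with summits at −4 and −1469 bp from the TSS. The activated values came from the peak at the TSS, and the reactivated ones from a peak with summits at −995 and −1011 bp. Hist1h4i (H4) was at 3.51 and 3.46, 4.53 and 3.71, then 6.07 and 3.83.

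By type, H4 promoters had the lowest medians in all 6 libraries. In the quiescent, then the activated, then the reactivated libraries these were 4.84, 4.38, 5.57, 4.95, 6.07 and 6.07. H2B stood at 8.04, 7.27, 7.37, 6.78, 7.78 and 8.38, and H2A at 7.83, 7.51, 7.09, 6.72, 7.29 and 8.16. H3 stood at 6.85, 6.49, 7.17, 6.24, 7.56 and 6.78, and H1 at 7.76, 8.25, 6.00, 6.08, 6.65 and 7.71, among those with a peak. By cluster the medians were 7.58, 6.65, 6.95, 6.42, 6.72 and 6.79 in HIST1 and 7.23, 6.73, 7.26, 6.25, 7.94 and 8.40 in HIST2, which was the higher in both reactivated libraries. These are medians over genes that share peaks, so no test was made between types or clusters.

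The exceptions among the linker histones were uneven. Hist1h1b (chromosome 13) had no ATAC peak in either quiescent library, values of 5.06 and 2.44 in the activated libraries, and 3.28 and 3.39 in the reactivated libraries. The value of 2.44 came from a peak with a −log10 q of 1.76, close to the threshold of the list, and no peak at this gene passed a minimum −log10 q of 10 in both activated libraries. With a window of 2 kb no member had peaks in both activated and neither quiescent library. H3K4me3 was present in both states there, at 26.6 in quiescent and 29.6 in activated NSPCs, but a peak of 6333 bp that also held Hist1h3i in quiescent cells was 3368 bp wide in activated cells and ended before that gene, which had a separate peak. With 2 libraries per state, no exact permutation test of a single gene can reach a two-sided p of 0.05.

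Hist1h1a, Hist1h1c and Hist1h1e were accessible throughout. Hist1h1c was at 8.19 and 8.25 in quiescent libraries, 9.16 and 8.34 in activated ones and 9.61 and 10.4 in reactivated libraries. Both quiescent values and that of activated library 2 came from a peak with its summit 924 to 961 bp downstream of the TSS. Activated library 1 and both reactivated libraries took theirs from the peak at the TSS, with summits from −12 to −4 bp. Hist1h1e was at 7.76 and 10.4, 6.95 and 8.12, then 8.69 and 11.9. Hist1h1a was lower, at 4.89 and 4.83, 5.02 and 4.03, then 4.62 and 4.97. All states overlapped at Hist1h1a, whereas at Hist1h1e both reactivated values were above both activated ones and the quiescent values overlapped both. At Hist1h1e the reactivated values came from a peak with its summit 858 and 854 bp downstream of the TSS. The quiescent and activated values there came from the peak at the TSS, with summits from −1 to 18 bp. At Hist1h1c the states did not overlap, but their values came from different peaks. Hist1h1d had no ATAC peak in any library at its GENCODE start, which lies 1770 bp upstream of the RefSeq start. With the RefSeq start, an alternative chosen after that gap was seen, the gene had a peak in all 6 libraries, at 6.18 and 5.43, 5.25 and 6.80, then 6.44 and 6.65, and H3K4me3 at 29.8 in quiescent and 20.5 in activated cells. The H3K4me3 peak at its GENCODE start, seen in activated cells at 11.5, also held Hist1h4f.

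The 3 germ cell members are Hist1h1t, the testis linker histone, and Hist1h2aa and Hist1h2ba, the testis H2A and H2B. Hist1h1t had neither an ATAC peak nor an H3K4me3 peak in any library, although it lies in the same block as 28 other histone genes. Hist1h2aa and Hist1h2ba, which form a divergent pair in a block of their own, had no peak in quiescent and activated libraries and no H3K4me3. In the reactivated libraries both were credited with a peak at 5.34 and 3.72. Its summit lay 298 and 300 bp downstream of the start of Hist1h2ba, inside that gene, and at −604 and −606 bp from the start of Hist1h2aa, not between the starts. Over all genes, 3.57% had peaks in both reactivated libraries and in no other.

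In the small clusters, Hist3h2ba (chromosome 11) had no peak in quiescent library 1, 2.45 in quiescent library 2, 5.31 and 3.85 in activated and 6.74 and 8.13 in reactivated libraries. The 1 quiescent value lay below all the others, and the gene could not be fitted with the rest for want of a value. Its neighbour Hist3h2a was at 7.80 and 7.11, 8.70 and 6.65, then 8.75 and 9.77. Hist4h4 (chromosome 6) was at 4.09 and 4.14, 4.61 and 4.44, then 7.29 and 9.64. At Hist4h4 the quiescent and activated values came from a peak whose summit lay at −62 to −81 bp from the TSS, whereas the reactivated values came from another peak 569 and 570 bp downstream.

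The second question was whether promoter strength differed between quiescent and activated NSPCs. The members called were near the share of all promoters, at 1 divergent promoter whose call was not stable. Fold enrichments were put on a log2 scale, centred on the median of each library, and fitted with limma over 11331 promoters, of which 61 were members. Hist1h2ak and Hist1h2bn, an H2A and an H2B gene with RefSeq starts 164 bp apart, were at 10.8 and 9.52 in quiescent libraries, 6.96 and 6.76 in activated ones and 9.69 and 10.5 in reactivated libraries. Both quiescent values exceeded both activated ones. The difference, quiescent minus activated, was 0.72 ± 0.16 (SE, log2; limma, adjusted p = 0.0209). No member was called lower in quiescent cells. In all, 1.35% of promoters were called higher and 1.39% lower, so 2 of 61 members that share 1 peak are near the background. The difference stayed above 0 but the call was lost when either quiescent or either activated library was left out, at 0.63 to 0.82, with quantile normalization, at 0.66, and without centring, at 0.56. With the peak nearest to a TSS in place of the strongest it was 0.74 at Hist1h2ak and −0.10 at Hist1h2bn, neither of them called.

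No other member was called. The median difference of the 61 members was 0.13 (log2), from −0.32 to 0.72, against 0.03 for all promoters. Without centring the median of the members was −0.03, below 0, and that of all promoters −0.13. Below 0, called or not, were 19 of 61 members, against 45.3% of all promoters. At an unadjusted p under 0.05 were 9 of 61 members, all higher in quiescent cells, against 18.5% of all promoters in either direction. For the strongest pair, Hist1h2ah and Hist1h2bk, the difference was 0.15 with a 95% interval from −0.14 to 0.45 (limma, adjusted p = 0.593). For Hist1h1c the difference was 0.07, from −0.25 to 0.39. There the downstream peak gave both quiescent values and that of activated library 2, whereas the peak at the TSS gave that of activated library 1.

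The third question was how reactivated NSPCs compared. The median level of the histone promoters was similar in the 3 states before centring, while that of all promoters was higher in reactivated libraries. The median over the 61 members was 7.24 and 6.73 in quiescent libraries, 6.96 and 6.43 in activated ones and 7.44 and 7.82 in reactivated libraries. Over the 11331 promoters it was 7.81 and 7.68, 9.39 and 7.97, then 11.9 and 12.6. The median member thus stood at 92.7% and 87.5% of the median promoter in quiescent libraries, 74.2% and 80.6% in activated ones and 62.6% and 61.8% in reactivated libraries. The 3 states did not overlap in this share.

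**Figure D2:**
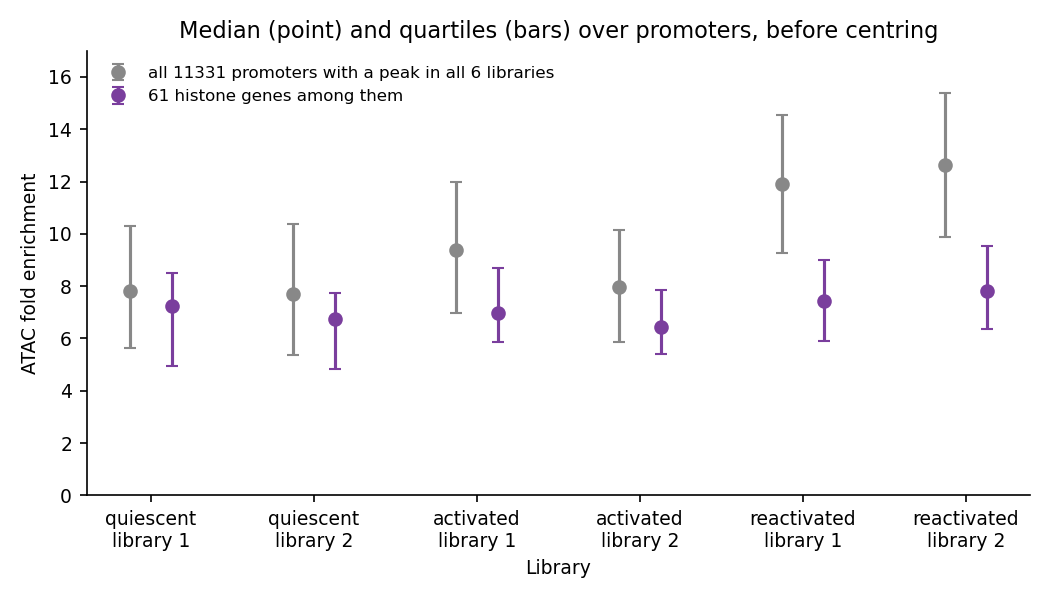
Median ATAC fold enrichment (points) with the lower and upper quartile (bars) in each of the 6 libraries, for the 11331 promoters with a peak in all libraries (grey) and the 61 histone genes among them (purple). The grey medians reach 11.9 and 12.6 in the reactivated libraries, while the purple medians lie between 6.43 and 7.82 in all 6.

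After centring on the library medians, 33 of 61 members (54.1%) were lower in reactivated than in quiescent NSPCs and 0 were higher (limma, adjusted p under 0.05), against 18.0% lower and 13.3% higher of all promoters, but without centring 0 were lower and 8 (13.1%) were higher. The uncentred shares of all promoters were 0.132% lower and 69.4% higher. The centring sets the direction: it subtracts a shift of the whole list, which without it was 0.63 (log2) over all promoters and 0.14 over the members. With quantile normalization 39 were lower and 0 higher, against 13% and 12.2% of all promoters. The median difference of the members was −0.52 after centring, from −0.95 to 0.37, against −0.04 for all promoters. Below 0, called or not, were 57 of 61 members, against 53.5% of all promoters, and at an unadjusted p under 0.05 were 39, all lower, against 43.9% in either direction. Over the 6 libraries, the values of Hist2h2aa1 and Hist2h3c1 differed in activated library 2 alone. Counting these 2 apart, the 33 members rested on 22 distinct sets of strongest peaks. Without reactivated library 1 the count was 8 (background 7.45%), without library 2 it was 12 (7.9%), and without quiescent library 1 it was 20 of 62 (13.9%). With the peak nearest to a TSS it was 7 (6.68%). In the centred values, both reactivated libraries were below both quiescent ones at 50 of 61 members, against 38.5% of all promoters.

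The members with the largest differences against quiescent NSPCs were spread over H2A, H2B, H3 and H4. The H3 gene Hist1h3i was at 4.90 and 4.88 in quiescent and 3.88 and 4.15 in reactivated libraries, a centred difference of −0.95 ± 0.22 (limma, adjusted p = 0.00376). Hist1h4d, whose promoter holds a TATA box and a CCAAT box, was at 7.24 and 6.65 against 5.90 and 6.21, a difference of −0.86 ± 0.19 (limma, adjusted p = 0.00276). At both genes the reactivated values were below the quiescent ones even before centring. The pair Hist1h2ai and Hist1h2bl was at 7.83 and 7.03 against 6.10 and 7.06, with a centred difference of −0.84 ± 0.19. There the value of reactivated library 1 came from a peak with its summit 284 bp downstream of the Hist1h2ai TSS. The other summits lay at −115 to −124 bp. The pair Hist1h2an and Hist1h2bp was at 9.18 and 7.53 against 7.74 and 7.82, with −0.76 ± 0.18. At these 2 pairs the uncentred values overlapped. With the peak nearest to a TSS in place of the strongest, the difference at Hist1h2an turned positive. Hist1h4b was at 4.16 and 4.38 against 4.21 and 3.93, with −0.73 ± 0.22. The pair Hist1h2ad and Hist1h2bf was at 6.60 and 6.19 against 5.69 and 6.64, with −0.72 ± 0.20, and the pair Hist1h2ag and Hist1h2bj at 7.96 and 7.51 against 6.83 and 8.31, with −0.70 ± 0.17. At Hist1h2ag and Hist1h2bj the 2 reactivated values came from separate peaks, with summits at −276 and −77 bp from the Hist1h2ag TSS. The quiescent summits lay at −227 and −262 bp. Of the H1 genes, Hist1h1a was called, at −0.68 ± 0.21 (limma, adjusted p = 0.0198).

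**Figure D3:**
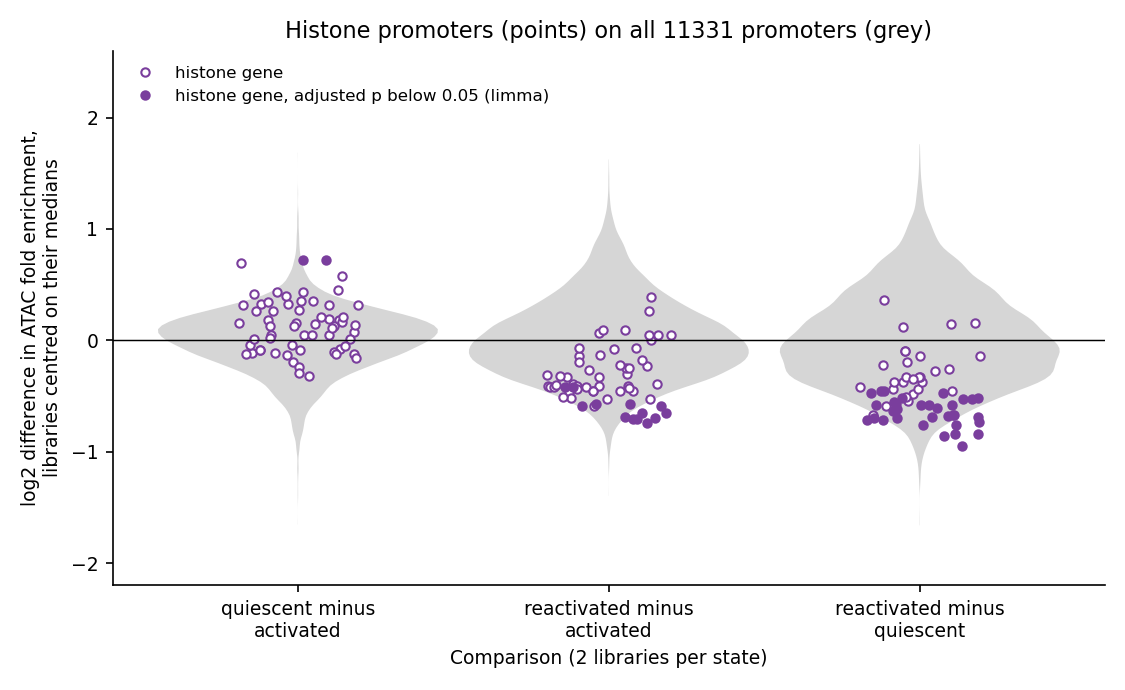
Log2 differences in centred ATAC fold enrichment (y axis) for the 3 comparisons of states (x axis), with grey shapes for the distribution of all 11331 promoters and points for the 61 histone genes, filled where the limma adjusted p was below 0.05. Most points lie below 0 in both comparisons with reactivated cells, with medians of −0.41 and −0.52, and they spread about a median of 0.13 in the first; without centring these medians were 0.09, 0.14 and −0.03.

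By type, the calls against quiescent NSPCs took in 12 of 17 fitted H2A genes, 12 of 16 H2B, 5 of 12 H3, 3 of 13 H4 and 1 of 3 H1, against 18.0% of all promoters. None of these calls was made without centring. By cluster they took in 29 of 49 in HIST1, 4 of 10 in HIST2 and none of the fitted genes in HIST3 and HIST4. The 4 genes in HIST2 were Hist2h2aa1, Hist2h2aa2, Hist2h3c1 and Hist2h3c2, which lie next to each other and include near-copies. Hist4h4 had a centred difference of 0.37 with a 95% interval from −0.08 to 0.81 (limma, adjusted p = 0.191), the highest value of any member, at the downstream peak described above. Whether types or clusters differ from each other was not tested.

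Against activated NSPCs, which are compared with the same 2 reactivated libraries, 13 of 61 members were lower after centring (21.3%) and 0 higher, against 8.81% lower and 8.21% higher of all promoters, but without centring 0 were lower and 7 (11.5%) higher. The uncentred shares of all promoters were 0.0971% lower and 53.4% higher. The median of the members was −0.41, and 0.09 without centring, against −0.03 and 0.48 for all promoters. Below 0, called or not, were 53 of 61 members, against 53.3% of all promoters, and at an unadjusted p under 0.05 were 31, all lower, against 33.3% in either direction. In the centred values, both reactivated libraries were below both activated ones at 45 of 61 members, against 34.3% of all promoters. The H2A gene Hist1h2af was at 4.74 and 3.84 in activated and 4.04 and 3.22 in reactivated libraries, a centred difference of −0.75 ± 0.23 (limma, adjusted p = 0.0321). The neighbours Hist1h3a and Hist1h4a were at 5.85 and 6.16 against 4.70 and 5.81, with −0.70 ± 0.21. At Hist1h3a these values came from the Hist1h4a peak, with summits 933 to 1112 bp downstream of its own TSS. Hist1h4d was at 7.42 and 6.43 against 5.90 and 6.21, with −0.69 ± 0.19. At Hist1h4d and at the pair Hist1h3a and Hist1h4a, both reactivated values were below both activated ones before centring, whereas they overlapped at Hist1h2af.

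Hist1h4f was at 6.90 and 6.40 in activated against 6.56 and 5.21 in reactivated libraries, with a centred difference of −0.69 ± 0.21. The pair Hist1h2ag and Hist1h2bj had −0.65 ± 0.17 (limma, adjusted p = 0.0171), the pair Hist1h2ac and Hist1h2bc −0.59 ± 0.15 and the neighbours Hist1h2bb and Hist1h3c −0.57 ± 0.19. The last was the strongest pair, Hist1h2ah and Hist1h2bk, at −0.42 ± 0.14. Over the 6 libraries, the strongest peaks of Hist1h3a and Hist1h4a differed in quiescent library 1 alone. Counting these 2 apart, the 13 members rested on 9 distinct sets of strongest peaks, and all lay in HIST1. The count was 0 without activated library 2 (background 3.25%), without reactivated library 1 (0.847%) and without reactivated library 2 (1.45%). With quantile normalization it was 28 (10.5%), with 0 higher (10.4%), and with the peak nearest to the TSS in place of the strongest it was 0 (2.07%).

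Other genes of histone supply were accessible in every library. All 10 replication-independent histone genes looked up, which supply variants outside S phase, had a peak in all 6 libraries (54.5% of all genes), at 2.89 to 15.5. None was called between quiescent and activated NSPCs (limma; 1.35% higher and 1.39% lower of all promoters), with 1 of 10 at an unadjusted p under 0.05, against 18.5%. Between reactivated and quiescent NSPCs, 2 of 10 were lower after centring, against 18.0% of all promoters: H2afz at −0.76 ± 0.14 (limma, adjusted p = 0.000998) and H2afj at −0.54 ± 0.15. In that comparison H2afy2, a macroH2A, was higher (13.3% of all promoters), at 0.84 ± 0.21 (limma, adjusted p = 0.00567). H2afy2 was at 2.89 and 2.98 in quiescent libraries, 6.10 and 4.99 in activated ones and 8.34 and 8.35 in reactivated libraries, with no overlap of the states. Against activated NSPCs, H3f3a and H2afz were lower (8.81%), at −0.44 ± 0.14 and −0.62 ± 0.14. Before centring, the mean of the reactivated values was below both other states at H2afz, and above quiescent at H2afj and above activated at H3f3a. The median of the 10 genes was −0.16 against quiescent and −0.11 against activated.

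The 18 genes of histone gene transcription and histone mRNA processing likewise had peaks in all 6 libraries (54.5%), at 3.52 to 18.2. Npat, which drives histone transcription, was at 12.98 and 12.6, 15.1 and 13.7, then 17.5 and 16.6. Slbp, which binds the stem-loop, was at 10.3 and 9.31, 9.63 and 9.97, then 13.2 and 12.6. Both genes had their highest values in the reactivated libraries. After centring, reactivated minus quiescent was −0.24 ± 0.11 for Npat (limma, adjusted p = 0.108) and −0.27 ± 0.15 for Slbp (limma, adjusted p = 0.165). Casp8ap2, a component of the histone locus body, was at 12.9 and 12.7, 14.2 and 13.1, then 16.2 and 16.6. None of the 18 was called between quiescent and activated NSPCs (limma; background 1.35% higher and 1.39% lower), with 2 at an unadjusted p under 0.05, against 18.5% of all promoters. Between reactivated and quiescent NSPCs, 3 of 18 were lower after centring, near the 18.0% of all promoters: Ccne1 (cyclin E1) at −0.43 ± 0.14, Sympk, of the cleavage complex, at −0.41 ± 0.13 and Casp8ap2 at −0.30 ± 0.11 (limma, adjusted p = 0.0488). Against activated NSPCs, Sympk alone was lower (8.81%), at −0.55 ± 0.13. Before centring, the reactivated mean was above the quiescent mean at all 3, and below the activated mean at Sympk. The median of the 18 was −0.13 against quiescent and −0.03 against activated.

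The last question was whether the promoters carried H3K4me3 in both states. They did at 63 of 67 members, against 61.0% of all genes. A peak was present at 63 members in quiescent and 64 in activated NSPCs (62.3% and 61.1% of all genes). The members without it in either state were the 3 germ cell genes, and the member with it in activated cells alone was Hist1h1d (0.12%). None had it in quiescent cells alone (1.36%). The mark covered the short genes whole at 52 members in each state. With 1 peak taken per gene, the median width over members was 4275 bp in quiescent and 3830 bp in activated cells, against 2158 and 2050 bp over all genes. A peak that holds several members counts here for each of them. The 63 members lay under 33 peaks in quiescent cells and the 64 under 34 in activated cells, with up to 5 genes in 1 peak: Hist1h2ae, Hist1h2bg, Hist1h2bf, Hist1h2ad and Hist1h3d, under 7374 and 7537 bp.

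H3K4me3 levels at the members were below those of the typical promoter in both states. The median fold enrichment was 26.1 in quiescent and 21.8 in activated cells, against 38.0 and 35.8 over all genes with a peak. By cluster, HIST2 was at 33.2 and 27.5 and HIST1 at 24.9 and 21.5. The highest was Hist2h2aa2 with Hist2h3c2, under 1 peak at 41.1 and 39.7, and the lowest was Hist3h2ba, at 13.4 and 9.73. With 1 library per state there is no replicate check and no test.

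Most members had a lower H3K4me3 enrichment in activated than in quiescent NSPCs. Of the 63 marked in both states, 58 (92.1%) were lower in activated cells by any amount, against 67.2% of 12688 genes, with a median of −0.27 (log2, activated minus quiescent) against −0.12 over all of these genes. Centred on that median, 48 of 63 lay below 0, against 50% of all genes. By at least 1.5-fold after centring, 4 members were lower (background 2.66%) and 0 higher (1.75%), and without centring 8 were lower (5.6%). The 4 were the linker histone gene Hist1h1c, at 35.9 and 19.1, Hist1h4b at 20.1 and 11.04, Hist1h4j at 33.1 and 18.7, and Hist1h3i at 26.6 and 15.1. The highest centred value was that of Hist1h1b, at 0.27. Hist1h3i and Hist1h1b take their quiescent value from the 1 broad peak they share and their activated values from separate peaks, so these 2 differences compare regions called differently. Hist1h4d likewise had a peak of 5754 bp in quiescent and of 1263 bp in activated cells. At the pair Hist1h2ak and Hist1h2bn, the mark was at 23.1 and 16.9, a centred difference of −0.33.

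**Figure D4:**
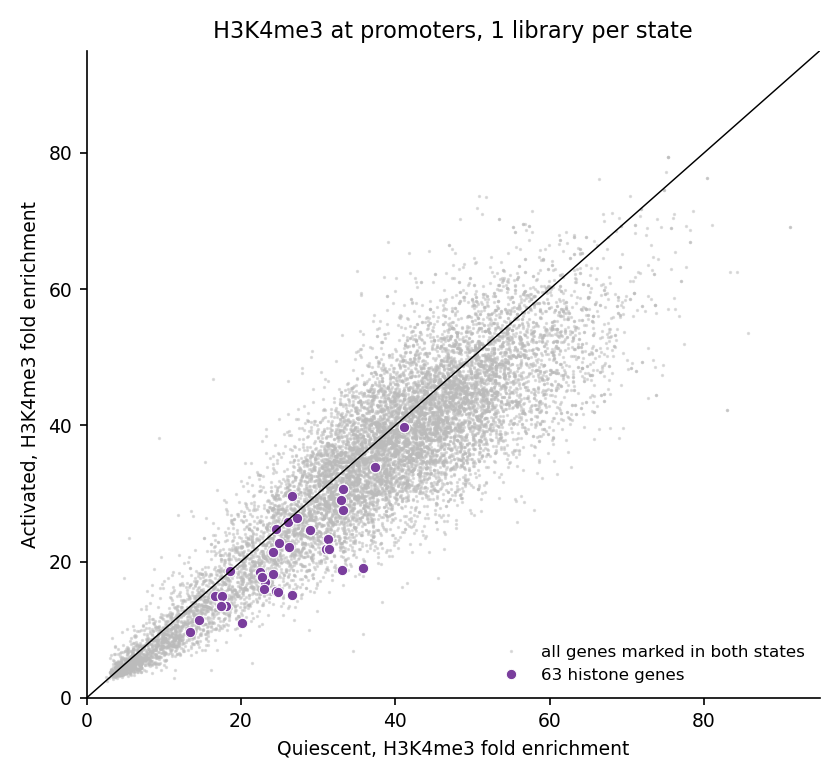
H3K4me3 fold enrichment in quiescent (x axis) and activated (y axis) NSPCs, 1 library each, for the 12688 genes marked in both states (grey) and the 63 histone genes among them (purple); the line marks equal values. Purple points lie mostly under the line, and 58 of 63 were lower in activated cells, against 67.2% of all genes plotted.

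Near-identical promoters limit what can be said of single genes. Hist1h2bq and Hist1h2br had identical RefSeq promoter sequences over the 300 bases, Hist1h4m and Hist1h4n were 99.0% identical and Hist2h3c1 and Hist2h3c2 90.2%. The study describes its mapped ATAC reads as unique and of high quality. Whether that word refers to placement or to duplicates is not given in the sources used here, so values of such copies may be shared or lowered. Hist1h2bq was at 8.52 and 7.66, 8.07 and 8.46, then 8.49 and 8.62, and Hist1h2br at 8.12 and 8.76, 7.82 and 7.84, then 8.15 and 8.44. The values of the 2 copies were close in every library.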

How the data were processed

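Peak lists were analysed, 1 per library. The authors trimmed reads with Trim Galore 0.4.0, aligned them to mm10 with Bowtie2 2.2.5, marked duplicates with Picard 1.88, removed them with SAMtools 1.3.1 (versions per the submitters' processing notes), and called ATAC peaks with MACS at an FDR of 0.05. The authors called H3K4me3 peaks against input as broad peaks, with 0.05 as q threshold and 0.01 as cutoff for broad regions. The lists carry no read totals, and the depths that the study states were not used here. The deposited fold enrichment is a linear ratio of pileup to local background, with no scaling across libraries. Significance was deposited as −log10 of the p-value and of the q-value, both of which grow with depth. The deposited score was used for nothing, and the deposited summit offsets gave distances.

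Genes and starts came from GENCODE M21 (GRCm38). No peak ran past the end of an autosome of that build. A gene took its highest fold enrichment within 1 kb of any TSS. log2 values, centred on each library's median, were fitted with limma 3.58.1 (trend, Benjamini-Hochberg over 11331 promoters with a peak in all 6 libraries). Scripts were tested on simulated data. Adjusted p below 0.05 was a call. Members, lists and tests were chosen with earlier results of these data known. Named were all members called between quiescent and activated and between reactivated and activated NSPCs. Of those called between reactivated and quiescent NSPCs, the ones with the largest differences and the called H1 and HIST2 genes were named. Also named were members that lacked peaks, the 5 highest and 5 lowest, H1, germ cell, HIST3 and HIST4 genes, and called related genes. Alternatives were other windows, thresholds, scalings, peak choices and left-out libraries. The number of libraries limits the precision. Chromosomes X and Y were not analysed here.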

Additional observations from a re-analysis of the deposited data

How the results depend on the processing

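Counts of accessible members stayed within 1.5 times under every window, threshold and left-out library that was run, and counts of members with H3K4me3, with 1 library per state, under every window and threshold that was run. The class accessible in activated and not quiescent NSPCs, 1 member, held 0 members with a 2 kb window, 0 at a minimum −log10 q of 10 and 2 in lists of equal length, and 1 to 2 with a library left out (2 without quiescent library 2, where Hist3h2ba joined). Without centring, the median of the members turned from 0.13 to −0.0298 for quiescent minus activated, from −0.41 to 0.0947 for reactivated minus activated and from −0.52 to 0.14 for reactivated minus quiescent. In the first comparison, the 2 members called higher became 0 with quantile normalization, 0 without centring and 0 with the peak nearest to a TSS, where Hist1h2bn had −0.10 and Hist1h2ak 0.74, and 0 to 2 with a library left out.

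For reactivated minus activated, 13 members lower became 28 with quantile normalization (median −0.48), 0 without centring, 0 with the nearest peak, 7 with missing values set to the lowest of the list and 0 to 13 with a library left out; 0 higher became 7 without centring and 2 with missing values set. For reactivated minus quiescent, 33 lower became 0 without centring, 7 with the nearest peak, where the median was −0.58 and Hist1h2an had 0.32, and 8 to 35 with a library left out; 0 higher became 8 without centring and 3 with missing values set, and 0 to 1 with a library left out. The median was −0.63 with quantile normalization. With a library left out, the medians ranged from 0.0517 to 0.17, from −0.44 to −0.30 and from −0.57 to −0.47. Where that left 1 library in a state, it was assumed to vary like the others. Members lower in H3K4me3 by 1.5-fold went from 4 to 8 without centring. The causes were not tested.

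Libraries of the same number did not deviate together: the correlations across 11331 promoters were 0.00198, 0.0337 and −0.0206. These correlations cannot show whether libraries were prepared in pairs, which the labels do not say. With a replicate block the calls were 2 members higher, 13 lower and 32 lower, and the medians did not move. Over all promoters, quiescent minus activated gave 153 higher and 158 lower, 27 and 240 without centring, 59 and 68 with quantile normalization, 2 and 2 with the nearest peak, and 23 to 157 and 36 to 83 with a library left out.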
